A study of Mus musculus with 30 samples.

Results

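The comparison described here asked whether dendritic cells lacking IRF4 responded to 6 h of lipopolysaccharide (LPS) differently from control cells, and whether a larger response in the knockout came from a higher level after LPS or from a lower level before it. It used 20 of the 30 arrays of the study, 5 in each of 4 groups. Bone marrow-derived dendritic cells (BMDCs), cells grown from marrow precursors in culture, came from C57BL/6 mice, either control animals with CD11c-Cre alone or knockouts (KO) that had CD11c-Cre together with IRF-4 flox/flox, so both genotypes carried the Cre transgene. Cells of each genotype were unstimulated or received LPS for 6 hours, and CD11c+ cells were bead-selected afterwards. Cre under the CD11c promoter deletes the floxed gene only in cells that turn this promoter on. The labels give no dose of LPS, no age of the mice and no culture conditions. The labels number the arrays as biological replicates 1 to 5 (letters A to E) without saying whether these were separate mice or cultures, so p-values measure only the spread between these samples. Each array set Cy5-labelled sample RNA against a Cy3-labelled universal mouse reference, and every level below is log2 of sample over reference.

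For each gene the response is the mean level at LPS 6 h minus the mean level in unstimulated cells of the same genotype. The difference of responses is the KO response minus the control response, in log2 units. It equals the KO minus control difference at 6 h (the end) minus the same difference in unstimulated cells (the start). A positive value can therefore come from a lower start in KO, from a higher end, or from both.

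LPS is sensed by the receptor TLR4, which signals through adaptors that lead to NF-kB and to interferon regulatory factors. The first wave of target genes encodes cytokines, chemokines and costimulatory molecules, and secreted type I interferon then induces a second wave of interferon-stimulated genes. IRF4 is a transcription factor of lymphoid and myeloid cells that binds DNA weakly alone and more tightly beside PU.1 or AP-1 partners, and it is known in dendritic cells for its part in the development of the conventional type 2 subset and in migration and antigen presentation on MHC class II.

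Irf4 itself was measured first. In unstimulated cells its level on replicates 1 to 5 was 1.51, 1.16, 1.28, 1.79 and 1.32 in control and -2.20, -0.85, -1.06, -0.84 and -2.51 in KO. At LPS 6 h it was 2.44, 2.55, 2.13, 2.42 and 1.99 in control and -0.31, -0.11, -0.20, 0.41 and -0.34 in KO. The genotypes did not overlap at either time, and the KO level was 7.49-fold lower before LPS and 5.35-fold lower after it (limma adjusted p = 3.58e-08 and 8.73e-07). Irf4 rose in both genotypes, by 0.90 ± 0.27 (SE) in control and 1.38 ± 0.27 in KO, and the difference of 0.49 ± 0.38 did not pass the test (adjusted p = 0.872). The place of the probe relative to the floxed part of the gene was not known, so the probe may not read the deleted part, and transcript without that part and RNA of cells that kept the gene cannot be told apart in the KO signal.

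One array did not carry the response its label implies. On control LPS 6 h replicate 3 the median rise above the unstimulated control mean was -0.081. It was taken over 79 genes of the interferon-stimulated, proinflammatory cytokine and chemokine lists. The other 4 control LPS 6 h arrays had 2.38 to 3.45, and the KO arrays at 6 h had 3.25 to 4.15 above the KO mean. Control LPS 6 h replicate 3 lay on a slide scanned on a later day, together with control LPS 24 h replicate 2, whose median rise was -0.060. The counts and the leading genes are given with it and without it. Among unstimulated KO arrays, replicates 1 and 5 had lower medians of the maturation list (0.908 and 1.05) than replicates 2 to 4 (1.63 to 1.95), and all 5 controls were higher still (2.46 to 2.87). No slide held both genotypes at the same treatment, so slide and genotype overlap in part. The median Cy5 signal was 101 to 151 per array, 44.8% to 66.1% of probes were well above background, and the number of arrays limits the precision.

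Both genotypes carried dendritic cell RNA. Of 20 dendritic cell identity genes, 14 were well above background on all 20 arrays, among them Itgax (CD11c) and the lineage factor Zbtb46. Of 22 named macrophage markers, 18 were also above background on all 20, and only Timd4 was on none. The log2 of their summed level ran from 8.17 to 9.17 in unstimulated control, 9.21 to 9.74 in unstimulated KO, 8.20 to 9.06 in control at 6 h and 8.99 to 9.66 in KO at 6 h, so the KO range lay above the control range before LPS and overlapped it at 6 h. None of the 18 macrophage markers tested passed the test for the difference of responses, and its part in the results was not tested. In these bulk samples fewer cells of a type and less RNA per cell cannot be told apart.

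Of 11250 genes tested, 33 (0.293%) had a higher and 16 (0.142%) a lower response in KO at an adjusted p under 0.05, and 36 of these 49 differed by at least 2-fold. Without control LPS 6 h replicate 3, 49 genes (0.436%) were higher and 32 (0.284%) lower. In all, 32 of the higher and 15 of the lower genes were called both ways, 17 of each direction were called only without that array, and 1 of each only with it. These last were Adamts7, a secreted metalloprotease, with an adjusted p of 0.0509 without the array, and Mcoln3, an endolysosomal cation channel, with 0.0583. The values of the 49 genes were closer to 0 without the array in 38, and their size without it was 0.785 to 1.18 times the size with it (median 0.939). The share of higher among called genes depended on the scaling: 35 higher and 10 lower with the scanner's own log ratios, and 36 and 5 after median centring in place of loess. With the Cy5 signal alone the share was smaller, with 32 higher and 22 lower.

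**Figure D1:**
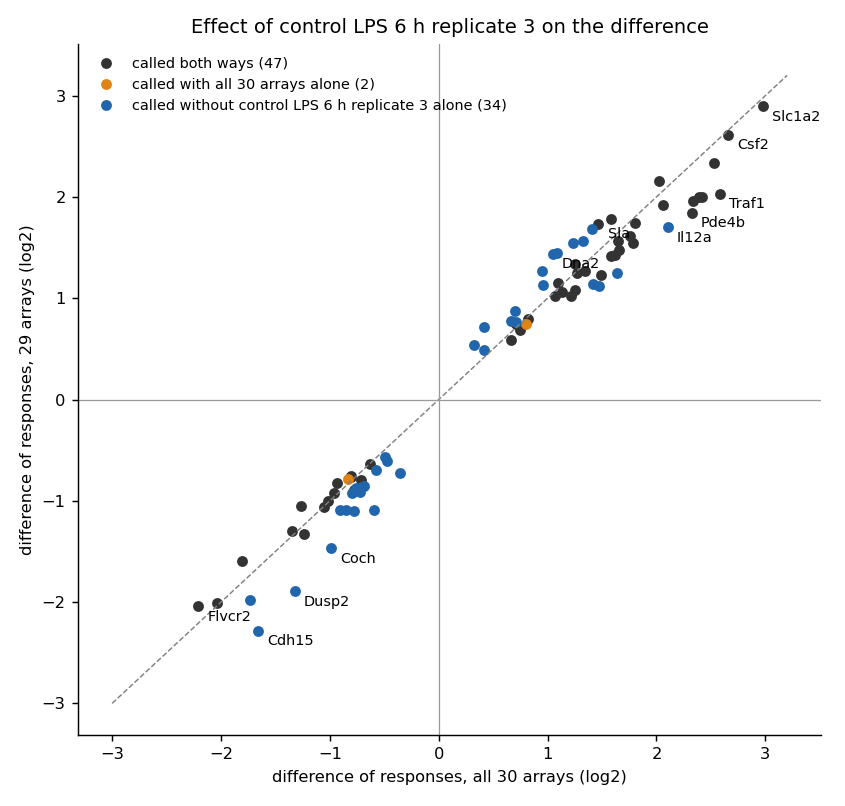
Difference of responses (log2) of the 83 genes called with or without control LPS 6 h replicate 3, from all 30 arrays (x axis) and from the 29 arrays without it (y axis), 1 point per gene. The dashed line marks equal values. Each of the 83 genes has the same sign on both axes, and Il12a and Cdh15 are among the 34 called only without that array.

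The start and the end were then separated for the 49 genes. At the start, 785 of all genes (6.98%) were higher and 806 (7.16%) lower in KO, and at the end 700 (6.22%) were higher and 662 (5.88%) lower. The start was called as different in the direction that makes the difference of responses in 35 of the 49 genes: 17 had a lower start, 5 a lower start and a higher end, and 13 a higher start. The other 14 differed in that way only at the end, 11 of them higher and 3 lower. Without control LPS 6 h replicate 3, the start counted in this way in 51 of 81 genes. These were 25 with a lower start, 6 with a lower start and a higher end, 18 with a higher start, and 2 with a higher start and a lower end. The rest of the 81 differed in that way only at the end, 18 of them higher and 12 lower. In 32 of the 49 the start made the larger part of the difference. Since the difference of responses uses the same arrays as the start and the end, these counts describe how each difference was made up and are no second test.

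**Figure D2:**
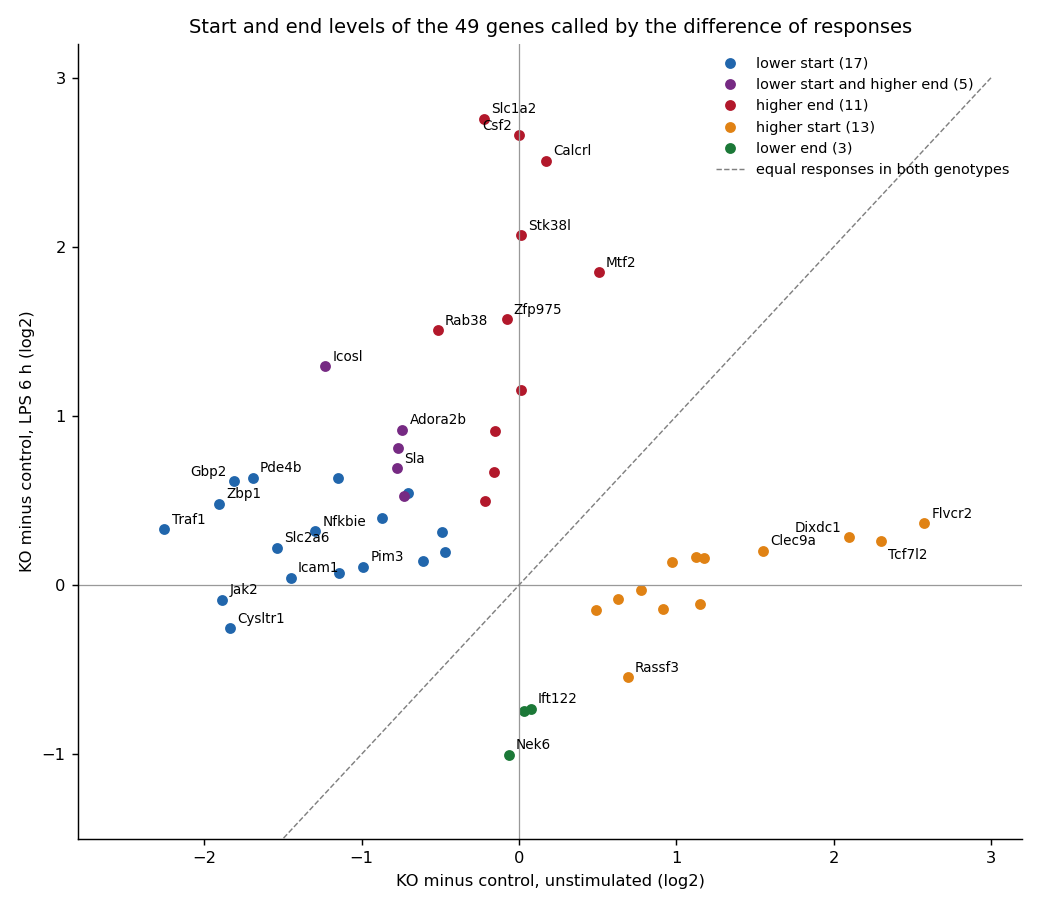
KO minus control difference (log2) in unstimulated cells (x axis) and at LPS 6 h (y axis) for the 49 called genes, coloured by class. Points on the dashed line would have equal responses in both genotypes. Slc1a2, Csf2, Calcrl and Stk38l lie near 0 on the x axis, Traf1 and Icam1 lie near 0 on the y axis, and Flvcr2 and Tcf7l2 lie to the right.

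The 11 higher-end genes were higher in KO after LPS and, apart from Mtf2, not called before it. Their median KO minus control difference was -0.078 before LPS and 1.57 at 6 h. Slc1a2, which encodes the glutamate transporter GLT-1, had the largest difference of responses among the 49. On replicates 1 to 5 its control level was 0.44, 0.42, 0.17, 0.46 and 0.27 before LPS and 0.52, 0.74, 0.36, 1.11 and 0.75 after it. In KO it went from 0.15, -0.04, 0.18, 0.18 and 0.18 to 3.78, 3.80, 3.93, 3.33 and 2.42. All 5 KO arrays at 6 h lay above every other array, and the control arrays before and after LPS overlapped. The KO level at 6 h was 6.76-fold above control and at least 9.99-fold above unstimulated KO, where the probe was not well above background on any array. The difference of responses was 2.98 ± 0.44 (SE, adjusted p = 0.000785), and 2.89 without control LPS 6 h replicate 3. A fold given as "at least" sets the brighter group's mean against the lowest signal well above background on each array of the dimmer group, or against the dimmer probe's own signal where that is higher, in Cy5 alone, and is replaced by the fold of the mean log2 ratios where that is lower.

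Csf2, the cytokine GM-CSF, was well above background only in KO at LPS 6 h, on all 5 arrays. Its levels there were 2.92, 3.23, 3.82, 2.03 and 1.33. The other groups read -0.37 to -0.14 (control unstimulated), -0.18 to 0.20 (control LPS 6 h) and -0.29 to -0.11 (KO unstimulated), which are levels at background. KO at 6 h was at least 5.72-fold above control at 6 h and at least 6.13-fold above unstimulated KO, with a fitted difference of responses of 2.66 ± 0.42 (adjusted p = 0.00242; 2.61 without control LPS 6 h replicate 3). With the scanner's own log ratios the value was 4.91. At 24 h the genotypes differed in Csf2 by 0.35, which did not pass the test (adjusted p = 0.51).

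Calcrl, the calcitonin receptor-like receptor, was measured on all 20 arrays. It moved in control from 2.02, 1.89, 2.06, 2.09 and 1.98 to 3.17, 3.20, 0.98, 2.67 and 2.46, and in KO from 2.08, 2.29, 2.29, 2.29 and 1.95 to 5.20, 5.45, 5.38, 4.66 and 4.33. The lowest KO array at 6 h was above the highest control array, and control replicate 3 was the only control array below the unstimulated ones. The difference of responses was 2.34 ± 0.42 (adjusted p = 0.00508) with that array and 1.96 without it.

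Stk38l, the kinase NDR2, read -0.21, -0.38, -1.06, -0.47 and -0.37 in control at 6 h and 1.45, 1.83, 2.05, 1.43 and 1.09 in KO, while the unstimulated groups overlapped (-0.93 to -0.58 and -1.16 to -0.06). Its difference was 2.06 ± 0.30 (adjusted p = 0.000738; 1.92 without control LPS 6 h replicate 3). Mtf2, a Polycomb-like protein that binds the PRC2 complex, had the smallest p-value. It stood at -0.19, -0.21, -0.05, -0.07 and 0.19 in unstimulated control, 0.12, 0.16, -0.32, -0.23 and 0.07 in control at 6 h, 0.40, 0.39, 0.37, 0.46 and 0.58 in unstimulated KO, and 1.91, 1.97, 2.00, 1.65 and 1.53 in KO at 6 h. Mtf2 was thus above control in KO without LPS by 0.51 ± 0.11 (adjusted p = 0.00144), did not pass the test for a control response (0.03 ± 0.11), and rose by 1.37 ± 0.11 in KO. Its difference of responses was 1.34 ± 0.15 (adjusted p = 1.59e-05), and 1.27 without control LPS 6 h replicate 3.

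Rab38, a small GTPase of lysosome-related organelles, had a difference of 2.03 ± 0.41 (adjusted p = 0.0134) that was uneven across the KO arrays: 1.67, 1.73, 1.61, 3.78 and 3.22 at 6 h, where replicates 4 and 5 were the high ones. Part of its difference came from the start, which was 1.43-fold lower in KO but not called. Unstimulated Rab38 levels did not overlap, at 0.44 to 0.82 in KO and 0.94 to 1.40 in control. Zfp975, a zinc finger gene, differed by 1.65 ± 0.28, and by 0.56 with slide in the fit. It was 1 of 3 called genes, with Jak2 and Uhrf2, that lost the call when all probes of a gene were averaged. The smaller differences in this class were those of Zfp811, Nudt13, Plaat1 and Slc36a3, between 0.71 and 1.14. Zfp811 was not well above background on any unstimulated array of either genotype, and its KO level at 6 h was at least 2.34-fold above unstimulated KO. Plaat1 was at least 1.93-fold above unstimulated KO, and Slc36a3 at least 1.41-fold above control at 6 h, each against a group with no array well above background.

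**Figure D3:**
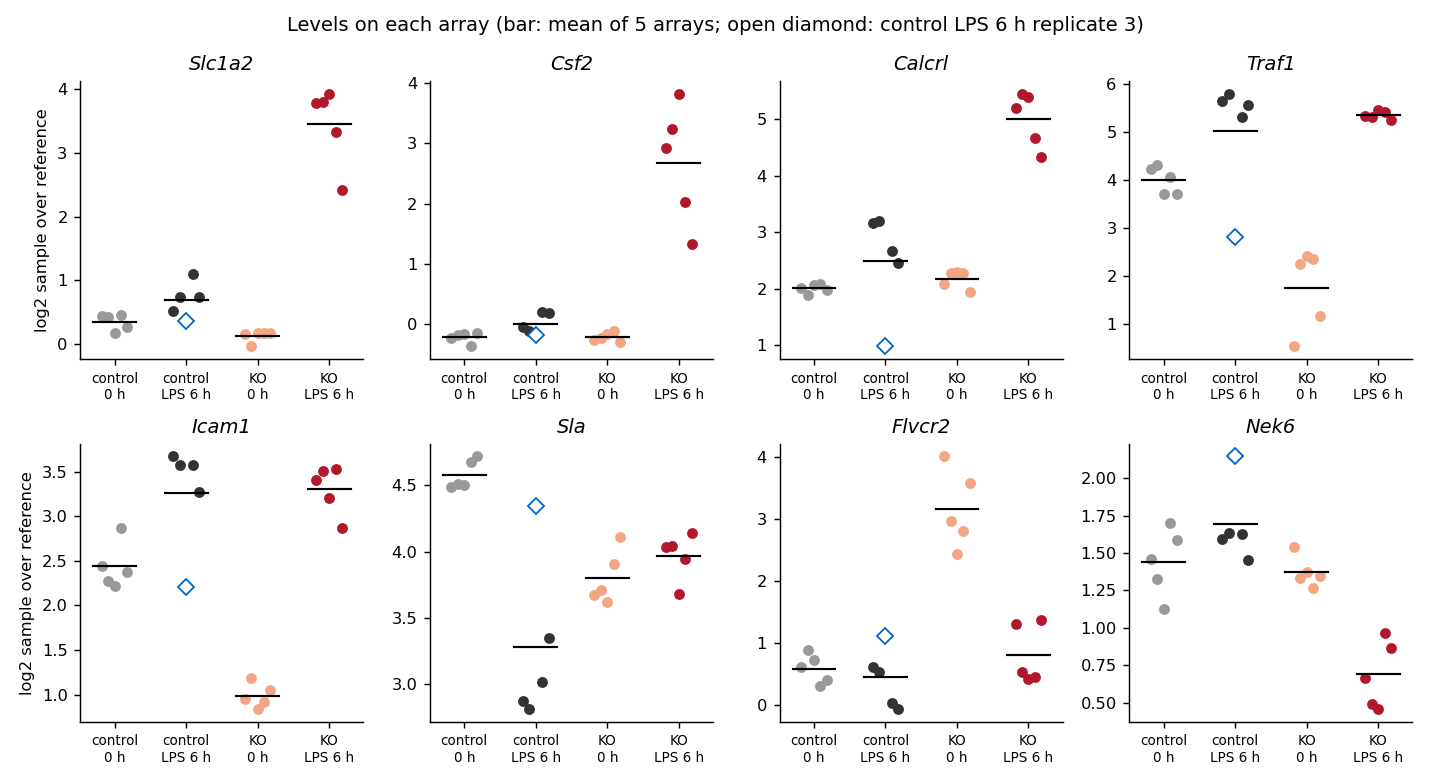
Level (log2 sample over reference, y axis) of 8 called genes on each of the 20 arrays, by genotype and treatment, with a bar at the mean of 5 arrays and an open diamond for control LPS 6 h replicate 3. In Slc1a2, Csf2 and Calcrl the KO LPS 6 h arrays stand above all others, in Traf1 and Icam1 the unstimulated KO arrays stand lowest and the 6 h groups overlap, in Flvcr2 the unstimulated KO arrays stand highest, and in Nek6 the KO LPS 6 h arrays stand lowest.

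The 5 genes with a lower start and a higher end crossed between the times. Icosl, the ICOS ligand that costimulates T cells, stood at 2.18, 2.18, 2.39, 2.21 and 1.88 in unstimulated control and at 1.01, 1.09, 0.99, 0.84 and 0.76 in unstimulated KO, and the groups did not overlap. At 6 h it read 3.91, 4.05, 2.36, 2.52 and 2.78 in control and 4.65, 4.75, 4.70, 4.13 and 3.87 in KO, where control replicates 1 and 2 overlapped with KO replicate 5. KO was 2.35-fold lower before LPS and 2.45-fold higher after it, and the difference of responses was 2.53 ± 0.43 (adjusted p = 0.00441; 2.33 without control LPS 6 h replicate 3). Adora2b, an adenosine receptor, differed by 1.66 ± 0.33, and Stxbp6, a syntaxin-binding protein, by 1.58 ± 0.30. The value for Stxbp6 ran from 0.37 to 3.30 across other ways of processing. Its call was lost with slide in the fit, with the scanner's own log ratios and with backgrounds as scanned.

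Sla and Pdlim2 reached this class by falling in control. Sla, the Src-like adaptor that lowers antigen receptor signalling, went in control from 4.49, 4.51, 4.50, 4.67 and 4.72 to 2.87, 2.81, 4.34, 3.02 and 3.35, and in KO from 3.67, 3.71, 3.62, 3.91 and 4.11 to 4.04, 4.04, 3.68, 3.95 and 4.14. It fell in 4 of 5 control arrays below every unstimulated array, and control replicate 3 stayed near the unstimulated level. The control response was -1.30 ± 0.19 (adjusted p = 0.000204), the KO response of 0.17 ± 0.19 did not pass the test, and the difference was 1.47 ± 0.26 (adjusted p = 0.00469), or 1.73 (adjusted p = 1.35e-06) without that array. Pdlim2, which in immune cells promotes the breakdown of nuclear RelA, fell in control by 1.05 and had a difference of 1.26 ± 0.22.

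The 17 lower-start genes had a median KO minus control difference of -1.29 before LPS and 0.32 after it. Without control LPS 6 h replicate 3 the median after LPS was 0.12, and 5 of the 17 differences were below 0 in place of 2, among them those of Traf1 and Icam1. Traf1, an adaptor of TNF receptor signalling, stood at 4.23, 4.30, 3.71, 4.05 and 3.69 in unstimulated control and at 0.53, 2.24, 2.42, 2.35 and 1.16 in unstimulated KO. At 6 h it read 5.64, 5.79, 2.80, 5.31 and 5.56 in control and 5.33, 5.31, 5.46, 5.41 and 5.23 in KO. KO cells started 4.77-fold lower, the groups overlapped at 6 h, and control replicate 3 lay below all unstimulated controls. The difference of responses was 2.58 ± 0.54 (adjusted p = 0.02), 2.03 without that array (adjusted p = 0.00291), and 1.51 with slide in the fit.

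Gbp2, an interferon-induced GTPase of cell-autonomous defence, stood at 2.52, 2.68, 2.55, 2.32 and 2.13 in unstimulated control and at -0.02, 1.11, 0.99, 1.11 and -0.02 in unstimulated KO, where replicates 1 and 5 were the low ones. At 6 h it read 4.08, 4.19, 1.89, 3.68 and 4.01 in control and 4.34, 4.37, 4.38, 3.89 and 3.94 in KO, which overlapped. KO started 3.50-fold lower, and the difference was 2.42 ± 0.47 (adjusted p = 0.00925), or 2.00 without control LPS 6 h replicate 3. Zbp1, a sensor of Z-form nucleic acid, rose in both genotypes, by 1.83 in control and 4.22 in KO, from a start 3.75-fold lower in KO.

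Icam1, the adhesion molecule that binds LFA-1, stood at 2.45, 2.28, 2.22, 2.87 and 2.37 in unstimulated control and at 0.95, 1.18, 0.84, 0.92 and 1.05 in unstimulated KO. At 6 h the genotypes overlapped, with 3.67, 3.57, 2.20, 3.58 and 3.27 in control and 3.40, 3.51, 3.21, 3.53 and 2.87 in KO. The start differed by -1.45 ± 0.19 (adjusted p = 9.73e-06) and the end by 0.04 ± 0.19 (adjusted p = 0.921), which made a difference of responses of 1.50 ± 0.27. The end turned without control LPS 6 h replicate 3, to -0.22 ± 0.13 (adjusted p = 0.334), and the difference of responses was then 1.23.

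Nfkbie, the NF-kB inhibitor IkB-epsilon, read 1.49, 1.13, 1.23, 1.82 and 1.41 in unstimulated control and -0.06, -0.03, -0.05, -0.02 and 0.77 in unstimulated KO. At 6 h the groups overlapped at 1.82 to 3.11 and 2.57 to 3.14, and the difference was 1.62 ± 0.30 (adjusted p = 0.00587). Pde4b, which degrades cyclic AMP, differed by 2.33 ± 0.44 and by 1.21 with slide in the fit. Jak2, a kinase of cytokine receptors, differed by 1.80 ± 0.39 from a start 3.70-fold lower in KO. Slc2a6, a hexose transporter, differed by 1.76 ± 0.33, Psmb8, an immunoproteasome subunit, by 1.22 ± 0.27, and Vasp, which promotes actin filament growth, by 0.66 ± 0.15. Ttc39c, a tetratricopeptide repeat gene, differed by 1.78 ± 0.32 but by 0.70 with slide in the fit.

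Pim3 and Cysltr1 were lower-start genes whose control level fell. Pim3, a survival kinase, had the tightest values of the class. It went from 0.12, 0.11, 0.19, 0.16 and 0.16 to -0.50, -0.65, -0.30, -0.41 and -0.65 in control, and from -1.03, -0.66, -0.88, -0.79 and -0.85 to -0.31, -0.32, -0.47, -0.29 and -0.57 in KO. The genotypes did not overlap before LPS and overlapped after it. The control response was -0.65 ± 0.09, the KO response was 0.45 ± 0.09, and the difference was 1.10 ± 0.13 (adjusted p = 2.22e-05), or 1.15 without control LPS 6 h replicate 3. Cysltr1, a cysteinyl leukotriene receptor, fell in control by 1.08, and its KO response of 0.50 ± 0.25 did not pass the test (adjusted p = 0.142).

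Promoter sequences were available for 25 of the 33 genes with a higher KO response and 14 of the 16 with a lower one, from RefSeq (GRCm38.p6), as windows of 250 bases before and 50 after the start site. The windows of Gbp2, Pilra, Nfkbie and Slc1a2 are shown because they hold elements of the kinds bound by IRFs, PU.1 with an IRF, or AP-1. The 250 bases before the start site are printed 5′ to 3′ on the gene's strand with each match in capitals.
Gbp2, chr3:142620413-142620662, plus strand: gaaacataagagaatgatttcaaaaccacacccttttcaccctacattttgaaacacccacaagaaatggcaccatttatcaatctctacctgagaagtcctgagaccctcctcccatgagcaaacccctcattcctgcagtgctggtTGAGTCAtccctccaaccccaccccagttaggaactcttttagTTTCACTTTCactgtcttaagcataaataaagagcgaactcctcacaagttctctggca
Pilra, chr5:137836279-137836528, minus strand: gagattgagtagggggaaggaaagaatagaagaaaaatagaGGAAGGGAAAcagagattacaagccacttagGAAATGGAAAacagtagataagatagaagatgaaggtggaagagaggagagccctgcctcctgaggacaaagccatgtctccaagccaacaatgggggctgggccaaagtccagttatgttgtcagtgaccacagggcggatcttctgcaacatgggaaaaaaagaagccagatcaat
Nfkbie, chr17:45555450-45555699, plus strand: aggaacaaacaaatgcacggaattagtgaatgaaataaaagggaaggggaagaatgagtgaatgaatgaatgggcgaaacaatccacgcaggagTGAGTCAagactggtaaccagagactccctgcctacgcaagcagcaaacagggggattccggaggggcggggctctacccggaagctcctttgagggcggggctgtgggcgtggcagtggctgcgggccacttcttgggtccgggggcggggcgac
Slc1a2, chr2:102706188-102706437, plus strand: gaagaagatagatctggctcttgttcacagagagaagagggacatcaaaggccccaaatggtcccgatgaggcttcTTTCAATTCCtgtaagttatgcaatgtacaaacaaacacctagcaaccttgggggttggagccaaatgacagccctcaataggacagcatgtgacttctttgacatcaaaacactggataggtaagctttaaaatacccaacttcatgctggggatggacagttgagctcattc
The capitals mark, in order, AP-1 and an interferon-stimulated response element (ISRE) in Gbp2, a PU.1-IRF composite and an ISRE in Pilra, AP-1 in Nfkbie and a PU.1-IRF composite in Slc1a2. Some of these are read on the opposite strand, as in Gbp2 (the ISRE) and Slc1a2.

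The patterns were searched on both strands, and a gene counted where any of its windows held the pattern. ISRE (GAAANNGAAA) was in 2 of the 25 genes with a higher KO response (8%), against 3.94% of the 9070 genes tested that had a window. The PU.1-IRF composite (GGAANNGAAA) was in 3 (12%) against 2.93%. AP-1 (TGANTCA) was in 3 (12%), and in 3 of the 14 genes with a lower response (21.4%), against 6.93%. Neither AP-1-IRF composite (TTTCNNNNTGANTCA or GAAATGANTCA, both of which contain the AP-1 letters) was found in any window of these genes, against 0.11% and 0.0882%. NF-kB (GGGNNTTTCC) was not found either, against 1.91%. Genes with a lower response held 0 ISRE and 0 PU.1-IRF matches. The counts are small and describe letters in a window.

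The 13 higher-start genes were higher in unstimulated KO cells and were not called as different after LPS, with median KO minus control differences of 1.13 before and 0.14 after. Flvcr2, a transporter of the major facilitator family, stood at 4.01, 2.96, 2.44, 2.81 and 3.58 in unstimulated KO and at 0.61, 0.88, 0.72, 0.30 and 0.40 in unstimulated control. At 6 h it read 1.30, 0.53, 0.42, 0.45 and 1.36 in KO and 0.61, 0.54, 1.11, 0.04 and -0.07 in control, where each group was well above background on 3 arrays. KO fell from a level 5.96-fold above control before LPS to one that overlapped control at 6 h. KO replicates 1 and 5 at 6 h still lay above every control array. The difference of responses was -2.21 ± 0.39 (adjusted p = 0.00469), or -2.04 without control LPS 6 h replicate 3.

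Tcf7l2, a transcription factor at the end of the Wnt pathway, stood at 1.27, 1.48, 1.55, 1.36 and 0.53 in unstimulated KO and at -0.79, -0.47, -0.28, -1.99 and -1.78 in control. At 6 h the levels were -0.59, -0.91, -0.68, -1.93 and -1.23 in KO and -0.88, -0.70, -1.20, -2.01 and -1.84 in control, which overlapped. In 3 of the groups, control before and after LPS and KO after LPS, replicates 4 and 5 were the lowest arrays. The difference was -2.04 ± 0.46 (adjusted p = 0.0354), -2.01 (adjusted p = 0.0462) without control LPS 6 h replicate 3 and -1.25 when all probes of the gene were averaged. Fzd4, a Wnt receptor, differed by -1.06 ± 0.24, and Dixdc1, which has a DIX domain of the kind that joins Wnt signalling proteins, by -1.81 ± 0.36, or -0.99 with the scanner's own log ratios.

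Clec9a, the dead-cell receptor of conventional type 1 dendritic cells, was well above background only in unstimulated KO, at 1.69, 2.20, 2.08, 2.03 and 1.22. The other groups lay between 0.02 and 0.59. Unstimulated KO was at least 2.76-fold above unstimulated control and at least 2.60-fold above KO at 6 h, and the fitted difference was -1.35 ± 0.22 (adjusted p = 0.0028; -1.30 without control LPS 6 h replicate 3 and -3.78 with the scanner's own log ratios). Xcr1, another marker of that subset, did not pass the test at the start (-0.22 ± 0.14, adjusted p = 0.307) or for the difference of responses (0.18 ± 0.19). Among 17 dendritic cell identity genes tested, Clec9a was the only one called.

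Cisd1, an iron-sulfur protein of the outer mitochondrial membrane, fell in both genotypes, by 0.50 in control and 1.77 in KO. Adcy3, an adenylyl cyclase, was well above background on no array of either genotype at 6 h, and unstimulated KO was at least 2.07-fold above KO at 6 h. Dusp13, Ipmk, Uhrf2, Acp6, Rassf3 and Mcoln3 differed by -1.24 to -0.63.

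The 3 lower-end genes were not called before LPS and were lower in KO at 6 h. Nek6, a mitotic kinase, read 1.46, 1.33, 1.13, 1.70 and 1.59 in unstimulated control, 1.54, 1.33, 1.37, 1.27 and 1.35 in unstimulated KO, 1.59, 1.63, 2.15, 1.63 and 1.45 in control at 6 h, and 0.67, 0.49, 0.46, 0.97 and 0.86 in KO at 6 h. All KO arrays at 6 h lay below every other array. KO was 2.00-fold lower there, and the difference of responses was -0.94 ± 0.19 (adjusted p = 0.0159), or -0.82 without control LPS 6 h replicate 3.

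Ift122, a part of the intraflagellar transport machinery, was -2.12, -2.12, -2.11, -2.20 and -2.03 in KO at 6 h, below the -1.67 to -1.21 of the other 3 groups, with a difference of -0.81 ± 0.15 (adjusted p = 0.00612). Mbd4, a DNA glycosylase that binds methylated CpG, moved in opposite directions: it rose by 0.40 ± 0.12 in control (adjusted p = 0.0307) and fell by 0.38 in KO (adjusted p = 0.0238). Its difference was -0.78 ± 0.17, or -0.90 without control LPS 6 h replicate 3.

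The 49 genes were then read by the response of each genotype. Over all genes, LPS called 1596 up (14.2%) and 1392 down (12.4%) in KO against 805 up (7.16%) and 502 down (4.46%) in control. Without control LPS 6 h replicate 3 the control counts were 1437 up (12.8%) and 1156 down (10.3%). Of the 33 genes with a higher KO response, 21 rose in KO with no control call, 8 rose in both, Pim3 rose in KO and fell in control, and Sla, Cysltr1 and Pdlim2 fell in control with no KO call. Of the 16 with a lower KO response, 14 fell in KO with no control call, Cisd1 fell in both, and Mbd4 fell in KO and rose in control. A call in one genotype and not in the other is no test of the difference, which is the test that chose these genes. Without that array, 18 of 49 higher genes rose in both genotypes and 16 rose in KO with no control call. A further 14 fell in control with no KO call, and 1 rose in KO and fell in control. Of the 32 lower genes, 13 then fell in KO with no control call and 2 fell in both. Another 6 fell in KO and rose in control, 6 rose in control with no KO call and 5 rose in both.

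The 34 genes called only without control LPS 6 h replicate 3 hold some with a strong control response that this array lacked. They are named after their values were seen. Il12a, the p35 subunit of IL-12, read 1.94, 1.72, -0.26, 1.51 and 1.87 in control at 6 h and 3.59, 3.79, 3.92, 3.64 and 3.04 in KO, from unstimulated levels between -0.38 and 0.01. All KO arrays at 6 h were above all control arrays. The difference was 1.70 ± 0.40 without replicate 3 (adjusted p = 0.0424) and 2.10 ± 0.50 with it (adjusted p = 0.0526).

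Cdh15, M-cadherin, showed the opposite order. It read 2.15, 2.11, -0.57, 2.86 and 3.09 in control at 6 h and -0.22, -0.04, 0.20, 0.76 and 0.43 in KO, from unstimulated levels between -0.84 and -0.39. Without replicate 3 the difference was -2.28 ± 0.34 (adjusted p = 0.000654), and with it -1.66 ± 0.58 (adjusted p = 0.331). Coch, an extracellular matrix protein, was lower at the end without that array. Its fitted difference was -1.47 ± 0.27 without it and -0.99 ± 0.45 with it, and it was not well above background on any unstimulated array. Dusp2, a phosphatase that inactivates MAP kinases, differed by -1.90 ± 0.39 and -1.32 ± 0.58.

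Psmb9, an immunoproteasome subunit, and Irf9, the DNA-binding part of the interferon-activated ISGF3 complex, were lower-start genes with differences of 1.25 and 1.14 without the array and 1.63 and 1.41 with it. Dna2, a nuclease-helicase, and Lifr, the leukaemia inhibitory factor receptor, had lower starts and control responses of -1.78 and -1.38 on the log2 scale without the array. Their KO responses did not pass the test.

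Most classical LPS targets were not called. Il6 stood at 7.60, 7.57, -0.65, 7.19 and 7.88 in control at 6 h and 8.02, 8.38, 8.71, 9.01 and 8.54 in KO. Unstimulated control was 1.48 to 1.94, and unstimulated KO ranged more widely, with -0.91, 0.20, 0.24, 2.07 and -0.52. All KO arrays at 6 h lay above all control arrays, yet the spread was large: the difference was 4.15 ± 1.47 (adjusted p = 0.338) and 2.51 ± 0.79 (adjusted p = 0.202) without control LPS 6 h replicate 3. Cxcl10, an interferon-induced chemokine, read 8.27, 8.59, -1.45, 5.42 and 5.44 in control at 6 h and 8.46, 8.73, 9.28, 7.79 and 7.32 in KO. Replicates 4 and 5 were lower than 1 and 2 in both genotypes, and the difference was 3.03 ± 1.72 (adjusted p = 0.735), or 1.36 ± 1.18 without replicate 3.

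Other cytokine and mediator genes named whatever their values also missed the threshold. Tnf had a difference of 0.70 ± 0.76, which was 0.01 without control LPS 6 h replicate 3, and Ifnb1 0.50 ± 0.77, which was -0.04 without it. Il1b had 0.45 ± 1.29 with the array and -0.33 ± 1.20 without it. Nos2, the inducible nitric oxide synthase, had 0.15 ± 1.05 and -0.38 ± 1.02. Ptgs2, cyclooxygenase-2, had 2.68 ± 0.97 and 1.90 ± 0.80 (adjusted p = 0.356 and 0.485). Inhba, an activin subunit, and Ch25h, cholesterol 25-hydroxylase, started higher in KO by 3.12 and 4.27 and had differences of -1.17 ± 0.89 and -1.01 ± 0.67. Ptgs2 and Ifnb1 were not well above background on any unstimulated array, nor were Nos2 and Cxcl10 on any unstimulated KO array, so their fitted differences rest on probes at background there. Il12b and Il10 were not among the genes tested.

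The gene lists were read by counts and medians beside all genes, whose median difference was 0.006 with and 0.003 without control LPS 6 h replicate 3. Of 27 lists, 7 held a called gene and 20 none (9 and 18 without that array). All 41 interferon-stimulated genes tested had a positive difference (40 without the array), against 5710 of all 11250 genes (5694 without it). Only Gbp2 and Zbp1 were called, with Irf9 added without the array. Gbp2 and Zbp1 lost the call without unstimulated KO replicates 1 and 5 together (1.99 and 1.90, adjusted p = 0.0552 and 0.103). The median of the list was 1.41, and 0.72 without the array, so this one array moved it by more than 1.5 times. The control response of these genes had a median of 2.54 with it and 3.15 without it, and the KO response 4.20. At the start the median KO minus control difference was -0.33, with 4 genes called lower (7.16% of all genes) and 0 higher (6.98%). At the end it was 1.09, or 0.29 without the array, with 0 genes called either way in both fits. Over all genes with the array, 6.22% were called higher and 5.88% lower at the end. Isg15, a ubiquitin-like modifier, and Irf7, the amplifier of interferon transcription, had differences of 1.80 and 1.34, and 0.72 and 0.40 without the array.

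Maturation and migration genes started lower in KO. Of 31 tested, 21 were lower and 0 higher before LPS (median -1.08), against 7.16% and 6.98% of all genes. At 6 h, 6 were lower and 0 higher (median -0.17), against 5.88% and 6.22% of all genes. The end was 8 lower and 0 higher without control LPS 6 h replicate 3 (median -0.66). For the difference of responses Traf1 and Icam1 were called, and the list's median was 0.95, or 0.64 without control LPS 6 h replicate 3. Ccr7, the receptor that guides dendritic cells to lymph nodes, started 1.79 lower in log2 units (KO minus control -1.79 ± 0.51) and had a difference of responses of 1.73 ± 0.73 (adjusted p = 0.495). Ccl22, a chemokine for T cells, started at -2.32 and had 1.81 ± 0.52 (adjusted p = 0.17). The costimulatory molecule Cd86 started at -2.11 and had 1.99 ± 0.66 (adjusted p = 0.266), and the maturation marker Cd83 started at -1.56 and had 1.70 ± 0.49 (adjusted p = 0.166). The 2 unstimulated KO arrays with the lowest medians of this list were replicates 1 and 5. Without these 2 arrays together, an alternative chosen after seeing the data, 35 genes were called higher and 26 lower, 37 of the 49 genes among them, and the start counted in 34 of the 61. The 12 that lost the call were Gbp2, Zbp1, Traf1, Acp6, Adamts7, Adcy3, Cysltr1, Jak2, Nek6, Pilra, Psmb8 and Uhrf2.

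**Figure D4:**
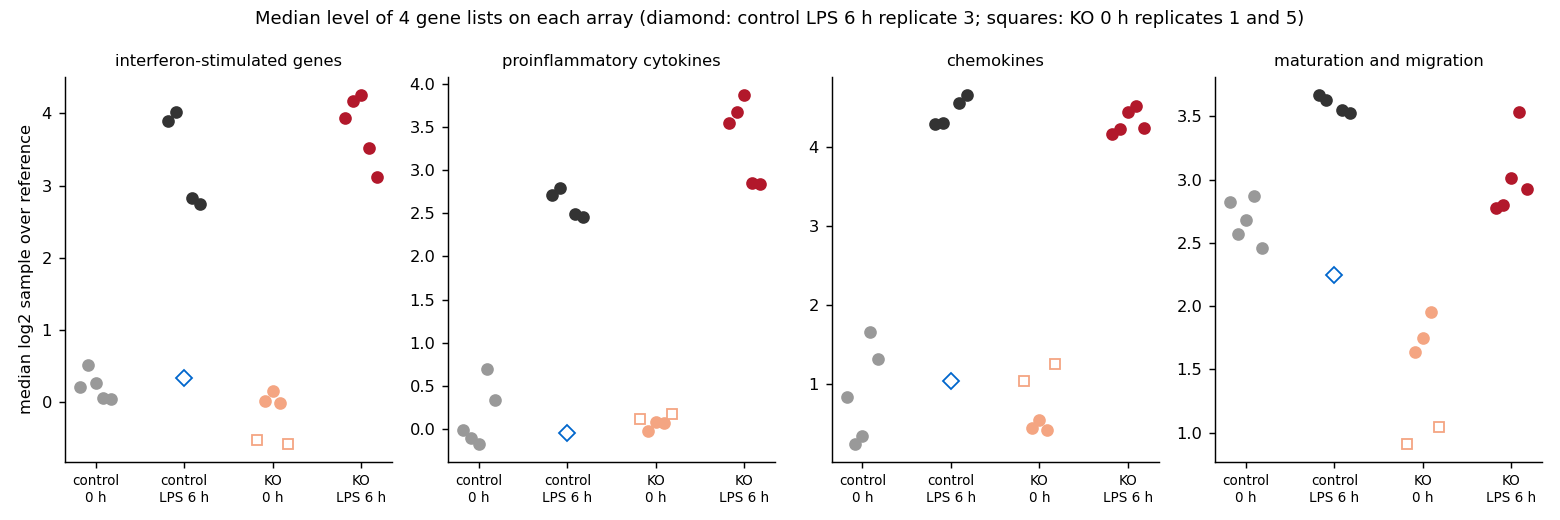
Median level (log2 sample over reference, y axis) of 4 gene lists on each of the 20 arrays, by genotype and treatment, with a diamond for control LPS 6 h replicate 3 and squares for unstimulated KO replicates 1 and 5. In the maturation list the unstimulated KO arrays (0.908 to 1.95) lie below all unstimulated controls (2.46 to 2.87), and in every list the diamond lies below the other control LPS 6 h arrays.

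The remaining cytokine, signalling and class I lists held 0 or 1 called gene each with all 30 arrays. Among 18 proinflammatory cytokines Csf2 was called, with Il12a added without control LPS 6 h replicate 3, and the median was 0.52 with it and 0.25 without. Of 20 chemokines 0 were called (medians 1.06 and 0.65), with 7 higher and 0 lower at an unadjusted p under 0.05 (5 and 2 without the array), where 522 of all genes were higher and 382 lower (487 and 407). In the NF-kB and survival list Traf1 was the 1 gene called of 16 (medians 0.67 and 0.41). Of 24 feedback inhibitors Nfkbie was called, with Dusp2 added in the other direction without the array (medians 0.38 and 0.15). Of 15 MHC class I genes Psmb8 was called, with Psmb9 added without the array (medians 0.29 and 0.085).

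The MHC class II list, in which IRF4 has known targets, held genotype calls at each time but none for the difference of responses. The missing calls do not show that the responses were equal. Of 19 genes, 8 were lower and 2 higher in KO before LPS, against 7.16% and 6.98% of all genes. At 6 h, 6 were lower and 2 higher, against 5.88% and 6.22% of all genes. For the difference of responses 0 were called, with 0 at an unadjusted p under 0.05 (limma, medians 0.24 and 0.21). Ciita, the transactivator of these genes, was lower in KO by -1.93 ± 0.33 before LPS and -1.38 ± 0.33 after it, with a difference of responses of 0.55 ± 0.47 (adjusted p = 0.9). H2-Aa, a class II alpha chain, was lower by -1.61 ± 0.28 and -0.88 ± 0.28, with a difference of responses of 0.73 ± 0.40 (adjusted p = 0.706).

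The KO minus control difference at 24 h of LPS came from 10 other arrays. Over all genes 789 (7.01%) were higher and 952 (8.46%) lower in KO there, and 578 and 749 without control LPS 24 h replicate 2. Of the 11 higher-end genes, 5 were still higher in KO at 24 h: Slc1a2 (7.12-fold, adjusted p = 6.6e-07), Calcrl (3.45-fold), Mtf2 (2.14-fold), Zfp975 (2.72-fold) and Zfp811. All 3 lower-end genes were lower at 24 h, Nek6 by -0.58, Ift122 by -0.49 and Mbd4 by -0.45. Of the 17 lower-start genes, 2 were higher (Pilra and Adamts7) and 4 lower (Jak2, Ttc39c, Cysltr1 and Icam1). Of the 5 genes with both, Adora2b was higher, and of the 13 higher-start genes, 4 were higher (Dixdc1, Clec9a, Dusp13 and Acp6). Without control LPS 24 h replicate 2, Jak2 and Dusp13 were no longer called (adjusted p = 0.145 and 0.146) and the other calls in these 49 genes were kept.

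Slide was tested as a batch. With slide as a fixed block, 10 genes were called higher and 25 lower, which is 28.6% higher against 67.3% without it. This fit rests on the 8 arrays of the 2 slides that held unstimulated and LPS 6 h cells of 1 genotype, 3 and 1 KO arrays and 2 and 2 control arrays, and its estimates are the within-slide values. All 49 genes kept their direction within slides, 41 had an unadjusted p under 0.05 there, and 7 kept the call: Ift122, Mtf2, Pilra, Pim3, Sla, Slc1a2 and Tcf7l2. The 8 arrays are among those whose difference chose the 49 genes, so their direction and unadjusted p within slides are no separate test. The size of the estimates was 0.859 times that without the block and their SE 1.50 times (medians). Besides those given above, the block reduced Jak2 to 1.14, Psmb8 to 0.70, Pdlim2 to 0.70, Nudt13 to 0.67, Slc36a3 to 0.42, Cisd1 to -0.71 and Adcy3 to -0.62. With slide as a random block 28 genes were higher and 10 lower.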

How the data were processed

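Total RNA of 30 samples was hybridised to Agilent 2-colour arrays against a universal reference. The deposited scanner files hold linear intensity per spot and Agilent's log10 ratio, per the file headers (Feature Extraction 10.7.3.1). The authors' deposited series table holds uncentred log2 ratios of sample over reference (column medians 0.00584 to 0.0183) and correlated at 0.999883 to 0.999998 with the values used here. limma was named in the submitters' processing notes.

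Median intensities were background-corrected (normexp, offset 50, local backgrounds marked non-uniform set to the array's median) and normalised by loess within arrays in limma 3.58.1 (R 4.3.3). Control spots had no weight, spots marked as outliers were left out, and spots of a probe were averaged. Of 41174 probes, 22951 were named through RefSeq accessions of GRCm38.p6 (16358 genes). A probe entered where some group had it well above background in Cy5 on each of its 5 arrays, and the brightest probe stood for its gene, which left 11250 genes.

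Group means were fitted on all 30 arrays (lmFit, eBayes), and p-values were adjusted by Benjamini-Hochberg over all genes, with calls under 0.05. Replicate pairs differed by at least 1.16 times the spread of repeated spots, so none was counted as a duplicate. The scripts were tested on simulated data. Named genes were the 10 largest differences each way among called genes measured in every group, the 3 largest in each class, called members of the lists, 20 chosen genes and called genes below background in a group, and others are named in counts. One gene that the rule names is not reported here. The genes and lists were chosen with earlier results of these data known. Alternatives were other normalisations, filters and blocks and each array left out.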

Additional observations from a re-analysis of the deposited data

Results flagged for a closer look

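The genotype difference itself was called in 33 genes with a higher and 16 with a lower LPS 6 h response in KO. In 23 genes, each group of 5 arrays was checked for a single array whose gap to the nearest other, over the group's range, exceeded 0.71. Chance gives about 1 such group in 20. Of 92 groups 12 passed, 8 of them through control LPS 6 h replicate 3 and 4 through an unstimulated KO array. The genes share the same arrays, so the groups are not independent. Il12a and Cdh15 were named because they were called only without control LPS 6 h replicate 3. The count is therefore no test of that array. Control LPS 6 h replicate 3 was lowest for Traf1 (2.80; the others 5.31 to 5.79), Gbp2 (1.89), Icam1 (2.20), Mbd4 (-0.48), Il12a (-0.26), Cdh15 (-0.57) and Il6 (-0.65), and highest for Nek6 (2.15). Among unstimulated KO arrays, replicate 2 was lowest for Slc1a2 (-0.037; the others 0.15 to 0.18), replicate 5 was highest for Nfkbie (0.77) and lowest for Tcf7l2 (0.53), and replicate 1 was lowest for Mbd4 (-0.73).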

How the results depend on the processing

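None of the 49 genes changed direction in any alternative (37 or 38 per gene), 34 kept their call with any 1 array left out, and Mtf2 and Slc1a2 kept it throughout. The count of 49 became 139 without the 2 arrays of the later slide, 1473 with array weights, 152 with the replicate number as a block, 176 when replicates 1 to 3 and replicates 4 and 5 had separate terms, and 28 with backgrounds as scanned. Leaving out single arrays gave 35 to 81, the highest without control LPS 6 h replicate 3. The count of 35 with a differing start became 22 on the 20 arrays alone, 90 without the later slide, 749 with array weights, 95 with the replicate block, 105 with those terms and 16 with backgrounds as scanned. It was 21 to 51 with single arrays left out: 22 and 23 without control unstimulated replicates 4 and 5, 21 without KO unstimulated replicate 1, and 22 without KO LPS 6 h replicate 2. The cause was not tested.

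Without control LPS 6 h replicate 3, the count of 81 became 262 (143 higher, 119 lower) with the replicate block and 56 to 95 with a second array left out. Median centring then gave 53 higher and 10 lower and moved the median of all genes to 0.110. Same-numbered arrays correlated at -0.336 to 0.809 in their deviations (median 0.544), over 0.1 in 23 of 30 pairs. Since not every pair was over 0.1, the replicate block was kept as an alternative and left out of the main fit. These values do not show that same-numbered arrays were unrelated, and variation they share is not modelled in the main counts. Within KO the pairs were at 0.108 to 0.657, and within control at 0.392 to 0.809 apart from 0.083 for replicate 3.

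The 15 genes that lost the call when some single array was left out did so for 5 to 15 of the 20 arrays, with adjusted p up to 0.102: Jak2, Cysltr1, Pilra, Traf5, Psmb8, Adamts7, Vasp, Acp6, Uhrf2, Mbd4, Mcoln3, Adcy3, Fzd4, Rassf3 and Tcf7l2. Signal near background limits 8 of the called genes and Ptgs2, Ifnb1, Nos2, Cxcl10 and Coch, whose fitted values rest on a group with no array well above it.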
